A study of Mus musculus with 24 samples.

Results

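Dexamethasone given alone was compared with vehicle in 6 of the 24 arrays of the series, 3 from plasmacytomas of mice given dexamethasone and 3 from plasmacytomas of control mice. The 6 arrays were picked by their treatment labels and not by a measured value. The comparison itself was chosen with earlier results of these data known. All 14884 genes that the array's probe table names by a single symbol were compared.

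The tumours were grown from MM.1S, a human multiple myeloma cell line. Cells mixed with Matrigel, a basement membrane gel, were placed under the skin of CB17-SCID mice, which lack working T and B lymphocytes, and mice with palpable tumours were randomised. The series asks how filanesib, an inhibitor of the mitotic motor kinesin spindle protein, acts with pomalidomide and dexamethasone. Expression was measured on Affymetrix arrays from biotin-labelled total RNA.

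Control mice received phosphate-buffered saline, and their label gives no number of days. Dexamethasone mice received 0.5 mg/kg into the peritoneum for 2 days. The other 6 groups, of 3 arrays each, received filanesib at 10 mg/kg, pomalidomide at 8 mg/kg, both, or dexamethasone added to either or both, also for 2 days. All groups carried tumours of the same cell line, so each result holds for 1 human line in an immunodeficient host. The organism given in the labels is the mouse, the host, while the probes are annotated to human genes. Whether the 3 arrays of a group stand for 3 animals is not said, so the p-values refer to the scatter among these arrays, which may be technical.

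Dexamethasone is a synthetic glucocorticoid and a standard drug in multiple myeloma. It enters the cell and binds the glucocorticoid receptor, which moves to the nucleus, switches on genes such as FKBP5, TSC22D3 and PER1, and restrains inflammatory genes driven by NF-kappaB and AP-1. In lymphoid and plasma cells the drug is known for stopping division and for inducing death through pro-apoptotic BCL2 family members such as BIM, the product of BCL2L11.

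The marker genes of plasma cells were read out at similar levels in all 6 arrays, on the log2 scale on which every level and difference below is given. MZB1, a chaperone of antibody-secreting cells, lay between 10.97 and 11.17. SDC1, the plasma cell surface proteoglycan CD138, lay between 10.00 and 10.22. The 8 plasma cell markers measured, of 12 listed, had a median difference of -0.04 between dexamethasone and control. The medians of the measured markers of 9 other cell types lay between -0.09 (fibroblast, 3 of 12 measured) and 0.10 (adipocyte, 6 of 10 measured), and no marker passed the test. Their median levels ran from 2.32 (fibroblast) to 4.46 (T and NK cell), and the medians of the arrays from 3.65 to 3.73. How far these human probes read RNA of mouse host cells is not known. The marker values therefore cannot show whether the host cell content differed. Correlations over all probe sets between any pair of the 6 arrays lay between 0.981 and 0.990. The arrays measured whole tumours, in which fewer cells of a type and less RNA per cell cannot be told apart.

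A single gene passed the test at an adjusted p under 0.05. SCARNA10 rose with dexamethasone, and no gene fell. That is 0.00672% of the 14884 genes tested. At an unadjusted p under 0.05 there were 581 genes (3.9%), of which 208 (1.4%) were higher and 373 (2.51%) were lower with dexamethasone. Without dexamethasone replicate 3 there were 209 higher and 190 lower, so that the excess of lower genes was no longer seen. The 2 groups of 3 arrays did not overlap for 1487 genes (9.99%). The median standard error of a gene's difference was 0.14, and the median difference of all genes was -0.02. Every other gene named below with a difference between dexamethasone alone and control is therefore given as a value that did not pass.

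**Figure D1:**
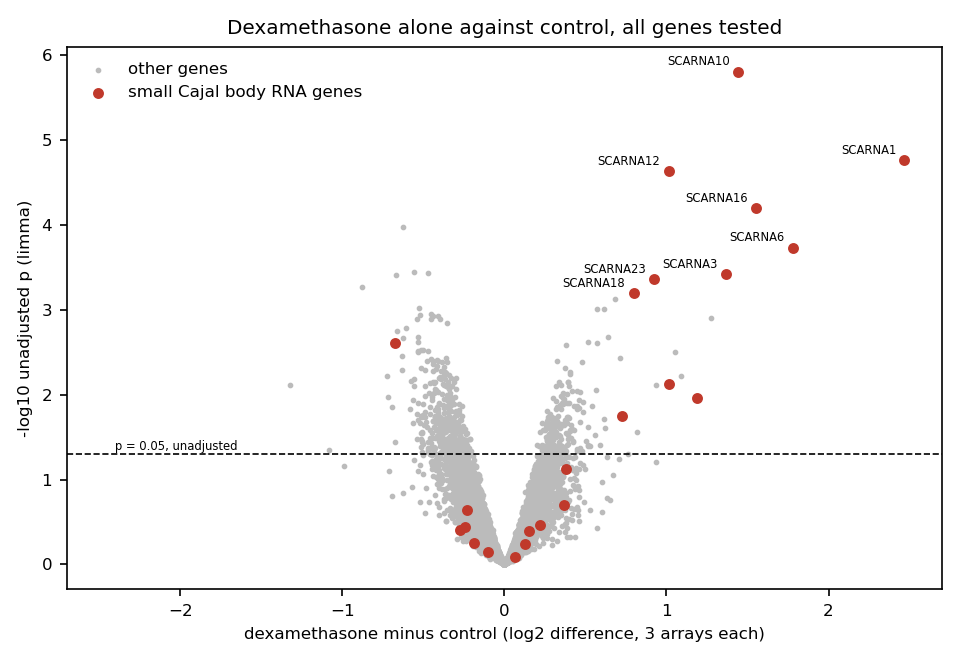
Difference between dexamethasone alone and control (log2, x axis, 3 arrays in each group) against -log10 of the unadjusted limma p (y axis) for the 14884 genes. Red points are the 23 small Cajal body RNA genes, and the dashed line marks the unadjusted threshold. SCARNA10 is the highest point, and 8 of the red points named in the plot lie above most other genes on the right.

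The genes with the smallest p-values belonged mostly to 1 class of RNA. Small Cajal body RNAs, or scaRNAs, are short non-coding RNAs that sit in the Cajal body of the nucleus and guide the methylation and pseudouridylation of the spliceosome's small nuclear RNAs. Most are cut out of the introns of host genes. The class was added to the gene lists because of its appearance in these data, so its counts are a description of these arrays. Of 23 scaRNA genes measured, 17 had a difference above 0 (45.4% of all genes did), 11 were higher at an unadjusted p under 0.05 against 1.4% of all genes, and 10 were higher with no overlap between the groups against 3.94% of all genes. The median difference over the 23 was 0.38. Without dexamethasone replicate 3 it was 0.58. The median position of the 23 relative to all 24 arrays was 0.48, 0.21 and 0.02 in dexamethasone replicates 1, 2 and 3. In the controls it was -0.27, -0.03 and -0.37, so the rise was largest in dexamethasone replicate 1 and smallest in replicate 3.

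SCARNA10, also called U85, guides modification of the U5 small nuclear RNA. Its levels were 8.40, 9.14 and 8.49 in the control arrays and 10.44, 9.98 and 9.92 in the dexamethasone arrays. Each dexamethasone array was higher than every control array. The means were 8.67 ± 0.40 and 10.11 ± 0.29 (SD, n = 3 each). The difference was 1.44 ± 0.23 (SE), a 2.71-fold level, with an adjusted p of 0.0234 in limma. Its adjusted p passed the threshold when control replicate 2 was left out, and lay between 0.0595 and 0.383 when any of the other 5 arrays was left out.

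SCARNA1 was near the bottom of the scale in controls, at 2.79, 2.63 and 2.53, and lay at 5.76, 4.68 and 4.91 with dexamethasone. Its control levels lay below the medians of the arrays and are not shown to be above background, so the size of its difference is uncertain. The difference was 2.47 ± 0.46, which did not pass in the model of all 24 arrays (adjusted p = 0.116). With the spread taken from these 6 arrays alone SCARNA1 passed (adjusted p = 0.0115) and SCARNA10 did not (adjusted p = 0.0883).

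SCARNA12 lies in an intron of PHB2 and was among the brighter scaRNAs, at 9.76, 10.25 and 9.72 in controls and 11.22, 10.65 and 10.89 with dexamethasone. Its difference was 1.01 ± 0.19 (adjusted p = 0.116). SCARNA16 lay at 7.62, 7.79 and 7.41 in controls and at 9.55, 8.74 and 9.17 with dexamethasone, a difference of 1.55 ± 0.32 (adjusted p = 0.237). Neither overlapped between the groups. SCARNA1, SCARNA12 and SCARNA16 also passed where the 24 arrays were weighted by their scatter, and where the arrays of pomalidomide alone were left out of the spread.

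SCARNA6, from an intron of ATG16L1, differed by 1.78 ± 0.40 (adjusted p = 0.461), with controls at 6.53, 7.35 and 6.15 and dexamethasone arrays at 9.21, 8.10 and 8.06. Its neighbour in the same host gene, SCARNA5, differed by 1.19 ± 0.43, but control replicate 2 at 8.51 lay above dexamethasone replicate 3 at 7.99. SCARNA3 lay at 8.54, 8.78 and 8.41 in controls and 10.27, 9.59 and 9.98 with dexamethasone, a difference of 1.37 ± 0.33 (adjusted p = 0.587). Dexamethasone replicate 1 held the highest level of all 6 arrays for SCARNA5, SCARNA6 and SCARNA3, and also for SCARNA1, SCARNA10, SCARNA12 and SCARNA16.

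SCARNA23, SCARNA18 and SCARNA22 had differences of 0.93, 0.80 and 0.73, again with no overlap between the groups. SCARNA23 lay at 2.86, 2.42 and 2.18 in controls and 3.08, 3.06 and 4.11 with dexamethasone. Like those of SCARNA1, its control levels lay below the medians of the arrays and are not shown to be above background. SCARNA8 averaged 4.60 in controls and 5.61 with dexamethasone, but control replicate 2 at 5.03 lay above dexamethasone replicate 2 at 4.79. SCARNA27 differed by 0.38 ± 0.21 and SCARNA2 by 0.37 ± 0.28. Several other members had values near 0 or below. SCARNA15 was lower in every dexamethasone array, at 2.27, 2.19 and 2.11 against 2.96, 2.56 and 3.05, with a difference of -0.67 ± 0.20 that did not pass. SCARNA7, from an intron of KPNA4, differed by 0.15 ± 0.18, SCARNA4 by 0.07 ± 0.28, SCARNA9, from CEP295, by -0.10 ± 0.27, and SCARNA17 by -0.23 ± 0.19.

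The protein-coding genes that carry scaRNAs had differences near 0 or below. Of 8 host genes listed, 5 were measured, with a median difference of -0.15. PHB2, a mitochondrial scaffold protein and the host of SCARNA12, was at 8.84, 8.76 and 8.76 in controls and 8.88, 8.75 and 8.83 with dexamethasone, a difference of 0.03 ± 0.11. ATG16L1, an autophagy protein and the host of SCARNA5 and SCARNA6, differed by -0.19 ± 0.21. NSD2, a histone methyltransferase and the host of SCARNA22, differed by -0.27 ± 0.18. Proteins of the Cajal body and of the guide RNA particles were close to 0 too: over 10 measured of 14 listed the median was -0.02, with COIL, which scaffolds the Cajal body, at 0.03 ± 0.17 and the methyltransferase FBL at -0.08 ± 0.11.

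Other short non-coding RNAs were mixed. The SNAR RNAs, short cytoplasmic RNAs bound by NF90, had a median of 0.36 over 8 genes, with 3 higher at an unadjusted p under 0.05 against 1.4% of all genes. SNAR-B1 was at 5.52, 6.09 and 5.53 in controls and 7.45, 6.85 and 6.65 with dexamethasone, a difference of 1.27 ± 0.35 (adjusted p = 0.769). RPPH1, the RNA of ribonuclease P, differed by 0.62 ± 0.26, whereas RMRP, the RNA of the related ribonuclease MRP, differed by 0.14 ± 0.10 and the telomerase RNA TERC by 0.16 ± 0.24. The 4 vault RNAs had a median of -0.04. The 1072 microRNA genes had a median of -0.01 with 504 above 0.

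Probe sets that the table names by no gene held more calls. When all 53617 probe sets were tested, 27 passed (0.0504%), and 26 of these had no symbol and are not named here. All 27 were higher with dexamethasone, by 0.918 to 3.85 with a median of 2.27. None overlapped between the groups, and 3.94% of the 14884 genes were higher with no overlap. The 27 were picked by the same difference. Some held identical values in the control and dexamethasone arrays, so the 27 are not separate signals. For all 27 the means with filanesib alone and with pomalidomide alone also lay above every control array. For 12 of them the controls lay below every other array of the series, against 0.0739% of the 14884 genes. Beside the other drugs 26 of the 27 were below 0 (48.4% of the 14884 genes were), with a median of -0.60.

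The 3 control arrays held the lowest SCARNA10 levels of the whole series. All 21 other arrays of the series lay above all 3 controls, and the arrays of the other 6 groups ranged from 9.31 to 10.94. Over all genes, 11 had every control below every other array (0.0739%). The median scaRNA difference from control was 0.39 for filanesib alone, 0.38 for dexamethasone alone and 0.28 for pomalidomide alone, 3 comparisons that share the control arrays. Against the same controls it was 0.20 for filanesib with dexamethasone, 0.11 for filanesib with pomalidomide and 0.14 for pomalidomide with dexamethasone. For the 3 drugs together it was -0.04, with 11 of the 23 above 0, so the controls were not lowest for the whole class. Against control, pomalidomide alone had 6 scaRNAs past the threshold in limma (1.98% of all genes passed), pomalidomide with dexamethasone 1 (0.161%) and filanesib alone 0 (no gene passed, 0%). SCARNA10 was above control by 1.90 ± 0.23 with pomalidomide alone (adjusted p = 0.000261 in limma) and by 1.13 ± 0.23 with filanesib alone (adjusted p = 0.323). When dexamethasone alone was set directly against each of the other single drugs, no scaRNA passed. Against filanesib 0 of 23 passed and 2 had an unadjusted p under 0.05 in limma, and over all genes 1, CDC20, passed (0.00672%) and 6.89% had an unadjusted p under 0.05. Against pomalidomide 0 of 23 passed and 3 had an unadjusted p under 0.05, and over all genes 38 passed (0.255%) and 11.9% had an unadjusted p under 0.05. For SCARNA10 dexamethasone minus filanesib was 0.31 ± 0.23 and dexamethasone minus pomalidomide -0.45 ± 0.23.

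**Figure D2:**
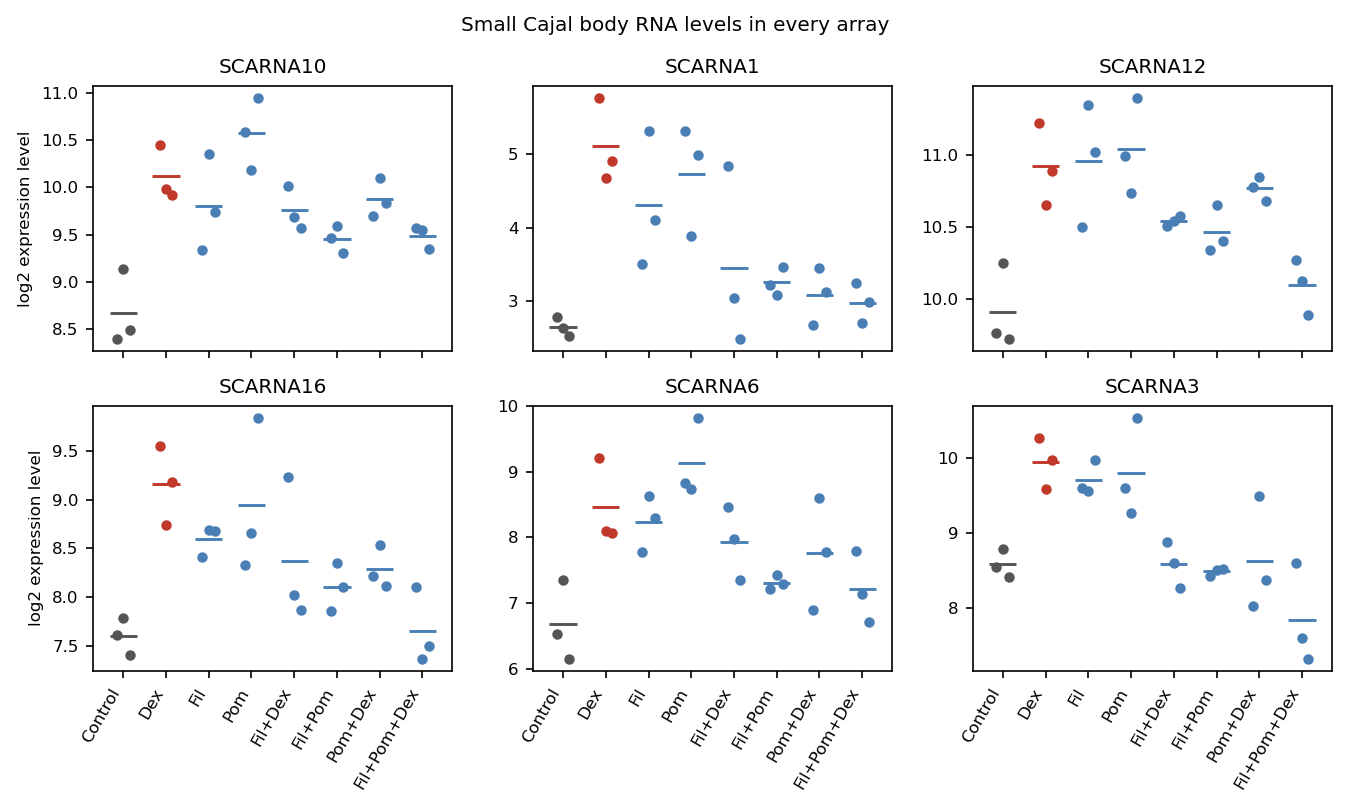
Levels (log2, y axis) of 6 scaRNAs in all 24 arrays by group; each point is an array and the bar is the mean of 3, with controls in grey, dexamethasone alone in red and the other groups in blue (Dex dexamethasone, Fil filanesib, Pom pomalidomide). The controls lie below all dexamethasone arrays for each of the 6 genes, and for SCARNA10 below all 21 other arrays.

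Dexamethasone added to the other drugs gave scaRNA values that lay mostly below 0. This second estimate used 9 arrays with dexamethasone beside filanesib, pomalidomide or both and 9 matched arrays without it, and shares no array with the first. SCARNA10 differed by -0.24 ± 0.13 there, SCARNA1 by -0.93 ± 0.26, SCARNA12 by -0.35 ± 0.11, SCARNA16 by -0.44 ± 0.18 and SCARNA3 by -0.98 ± 0.19 (adjusted p = 0.203). The median of the 23 scaRNAs was -0.16, and 18 of them lay below 0 (48.4% of all genes did). No gene passed in this comparison, and 1207 had an unadjusted p under 0.05 (8.11%).

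The difference between the 2 estimates was tested directly, and 5 genes passed (0.0336%), all of them scaRNAs and all with the larger value for dexamethasone alone. At an unadjusted p under 0.05 there were 12 of the 23 scaRNAs, against 4.2% of all genes. The differences were 3.40 ± 0.53 for SCARNA1, 2.35 ± 0.38 for SCARNA3, 1.68 ± 0.26 for SCARNA10 and 1.37 ± 0.22 for SCARNA12 (adjusted p = 0.0102 for each) and 1.99 ± 0.37 for SCARNA16 (adjusted p = 0.049). The controls enter only the estimate for dexamethasone alone, and of the 21 other arrays those above all controls numbered 18 for SCARNA1, 11 for SCARNA3, 21 for SCARNA10, 19 for SCARNA12 and 19 for SCARNA16. The part of the low controls in these differences was not tested. Omitting single arrays left between 0 and 7 genes, with 0 when control replicate 1, control replicate 3 or dexamethasone replicate 1 was left out.

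None of the known glucocorticoid targets passed with dexamethasone alone. Of 34 listed genes that glucocorticoids are known to induce, 23 were measured, and their median difference was 0.01, with 13 above 0. None had an unadjusted p under 0.05, and for none did the groups separate. The receptor gene NR3C1 and the targets TSC22D3 and NFKBIA are among the listed genes not analysed here.

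FKBP5, a co-chaperone that restrains the receptor and is a standard marker of its activity, was at 5.57, 5.17 and 5.68 in controls and 5.30, 5.44 and 5.63 with dexamethasone. The groups overlapped fully, and the difference was -0.02 ± 0.17. Beside the other drugs it was 0.22 ± 0.10, with an unadjusted p of 0.03 and an adjusted p of 0.57, and the difference between the estimates did not pass (-0.24 ± 0.19).

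PER1, a circadian clock gene with glucocorticoid response elements, was at 6.22, 6.05 and 6.42 in controls and 6.22, 6.14 and 7.02 with dexamethasone. Only dexamethasone replicate 3 was above all controls, and the difference was 0.23 ± 0.18. DUSP1, a phosphatase that turns off MAP kinases, differed by -0.24 ± 0.26, and SGK1, a kinase induced by corticosteroids, by -0.25 ± 0.13. KLF9, a transcription factor induced early by glucocorticoids, differed by 0.09 ± 0.21. The metallothionein MT1X differed by 0.35 ± 0.25, the repressor BCL6 by 0.31 ± 0.17 and TXNIP, which inhibits thioredoxin, by 0.24 ± 0.17. In each of these 8 genes the groups overlapped.

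**Figure D3:**
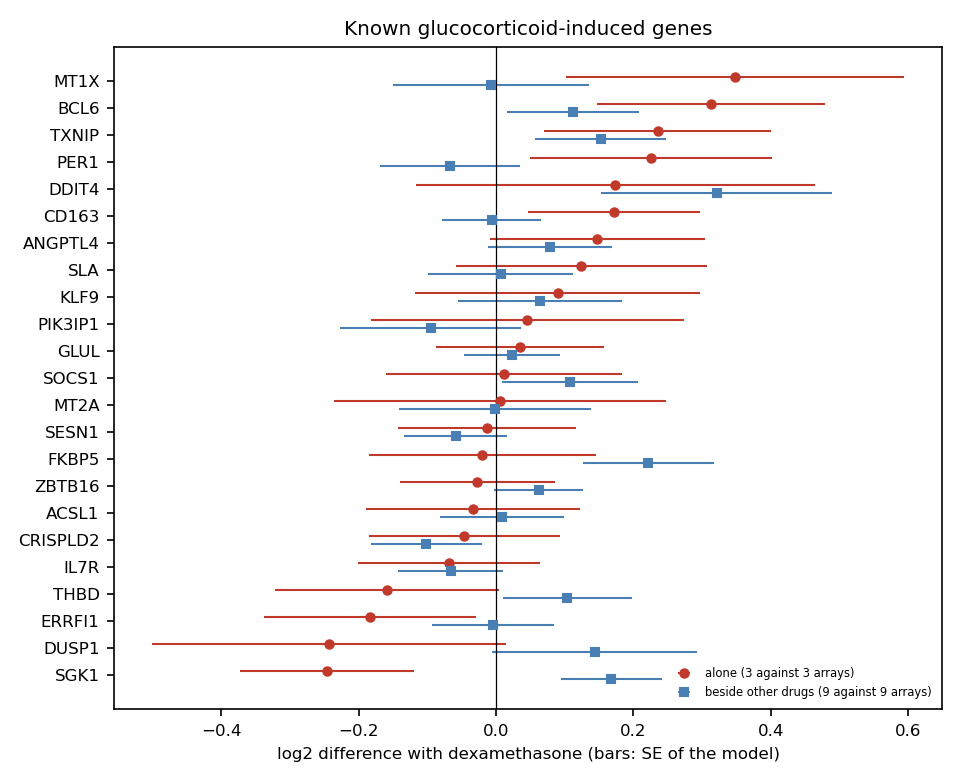
Difference with dexamethasone (log2, x axis) for the 23 measured glucocorticoid-induced genes, alone (red, 3 against 3 arrays) and beside the other drugs (blue, 9 against 9 arrays); bars are standard errors of the model. The red points run from -0.25 for SGK1 to 0.35 for MT1X on both sides of 0.

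The receptor's chaperones and cofactors (10 measured of 21) had a median of 0.10, with none at an unadjusted p under 0.05. STIP1, which hands the receptor from HSP70 to HSP90, was at -0.27 ± 0.14, and the coactivator NCOA1 at 0.19 ± 0.18.

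Inflammatory and NF-kappaB genes, which glucocorticoids are known to repress, had no member that passed. Over 20 measured of 30 listed the median was -0.06, with 14 below 0 (54.6% of all genes were), 2 lower and 1 higher at an unadjusted p under 0.05 against 2.51% and 1.4% of all genes. CXCL10, a chemokine induced by interferon, had the most negative difference of all 14884 genes. It lay at 5.74, 6.70 and 6.48 in controls and at 6.16, 5.31 and 3.47 with dexamethasone, so that dexamethasone replicate 1 lay within the range of the controls and replicate 3 far below. The difference was -1.32 ± 0.45, with an unadjusted p of 0.0077, and -0.57 without replicate 3, and beside the other drugs it was -0.65 ± 0.26. NFKB2, a subunit of the alternative NF-kappaB pathway, differed by -0.35 ± 0.16, whereas TNF differed by 0.33 ± 0.13. The control mean of TNF, 3.48, lay below the medians of the arrays and is not shown to be above background. NFKB2 means without and with dexamethasone were 8.32 and 8.31 for filanesib, 8.10 and 8.33 for pomalidomide, and 8.46 and 8.38 for both. The adhesion molecule ICAM1 was at 6.82, 6.15 and 6.42 in controls and 6.79, 5.93 and 5.35 with dexamethasone, a difference of -0.44 ± 0.23 that was -0.11 without replicate 3.

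The interferon response genes (29 measured of 40) had a median of -0.12 with dexamethasone alone, 3 of them lower at an unadjusted p under 0.05 against 2.51% of all genes, and 0 without dexamethasone replicate 3. Beside the other drugs the median was -0.21, with 26 below 0 and 12 lower at an unadjusted p under 0.05, against 3.68% of all genes. IRF1, an interferon-induced transcription factor, was at 7.97, 8.06 and 8.11 in controls and 7.92, 7.85 and 7.55 with dexamethasone alone. The difference was -0.27 ± 0.11. Beside the other drugs IRF1 did not share the fall. Its means without and with dexamethasone were 7.81 and 7.84 for filanesib, 7.88 and 8.06 for pomalidomide, and 7.95 and 7.95 for both. IFIH1, a sensor of double-stranded RNA, differed by -0.19 ± 0.14 alone and by -0.25 ± 0.08 beside the other drugs.

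Cell cycle genes lay below control with dexamethasone alone, without any passing. Of 42 mitosis and spindle genes, 35 were measured, and 34 of these were below 0 with a median of -0.27. At an unadjusted p under 0.05, 7 were lower against 2.51% of all genes, and 8 were lower with no overlap against 6.05%. CCNF, a cyclin that directs ubiquitination, had the lowest value, at 7.72, 7.64 and 8.04 in controls and 7.57, 7.31 and 6.99 with dexamethasone (-0.51 ± 0.17). The phosphatase CDC25C, which activates CDK1, and the spindle midzone protein PRC1 differed by -0.41 ± 0.16 and -0.41 ± 0.17, and CDC20, which activates the anaphase-promoting complex, by -0.30 ± 0.13.

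KIF11, which encodes kinesin spindle protein, the target of filanesib, was at 8.42, 8.44 and 8.90 in controls and 8.07, 8.51 and 8.37 with dexamethasone, a difference of -0.27 ± 0.20 with overlapping groups. HASPIN, the kinase that phosphorylates histone H3 in mitosis and not a member of the list, had the smallest p among protein-coding genes of at least moderate level that were lower. It lay at 7.37, 7.20 and 7.45 in controls and 6.97, 6.59 and 6.46 with dexamethasone (-0.67 ± 0.16, adjusted p = 0.587).

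DNA replication genes lay lower as well, with 26 of 27 measured (38 listed) below 0 and a median of -0.21. The phosphatase CDC25A, which opens entry to S phase, was at 6.60, 6.60 and 6.45 in controls and 6.39, 5.92 and 5.75 with dexamethasone (-0.53 ± 0.16). RRM2, a subunit of ribonucleotide reductase, was at 9.24, 9.21 and 9.57 against 9.01, 8.89 and 8.80 (-0.44 ± 0.15). The licensing factor CDT1 differed by -0.35 ± 0.15 and GINS2, a part of the replicative helicase, by -0.39 ± 0.18, but PCNA, the sliding clamp, by 0.05 ± 0.15.

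The lean of both lists depended in size on the arrays used. Without control replicate 3 the median of the mitosis list was -0.19 and that of the replication list -0.10, and without dexamethasone replicate 3 they were -0.19 and -0.17. Without that array 32 mitosis genes and 24 replication genes were below 0, and 1 mitosis gene and 4 replication genes were lower at an unadjusted p under 0.05, against 1.28% of all genes. The median position of the mitosis genes relative to all 24 arrays was -0.17, -0.11 and 0.12 in the controls and -0.24, -0.20 and -0.44 in the dexamethasone arrays. A low position was not particular to dexamethasone, since with pomalidomide alone it was -0.22, -0.33 and -0.57. With filanesib alone it was 0.42, -0.05 and 0.50. Both these groups are baselines of the estimate beside the other drugs. Beside the other drugs the medians were 0.04 for mitosis, with 26 of 35 above 0 (51.6% of all genes were), and 0.08 for replication, with 18 of 27 above 0. At an unadjusted p under 0.05, 2 mitosis genes and 5 replication genes were higher there, against 4.43% of all genes. For no gene of either list did the difference between the 2 estimates pass. At an unadjusted p under 0.05 for that difference there were 9 of 35 mitosis genes and 9 of 27 replication genes, against 4.2% of all genes.

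**Figure D4:**
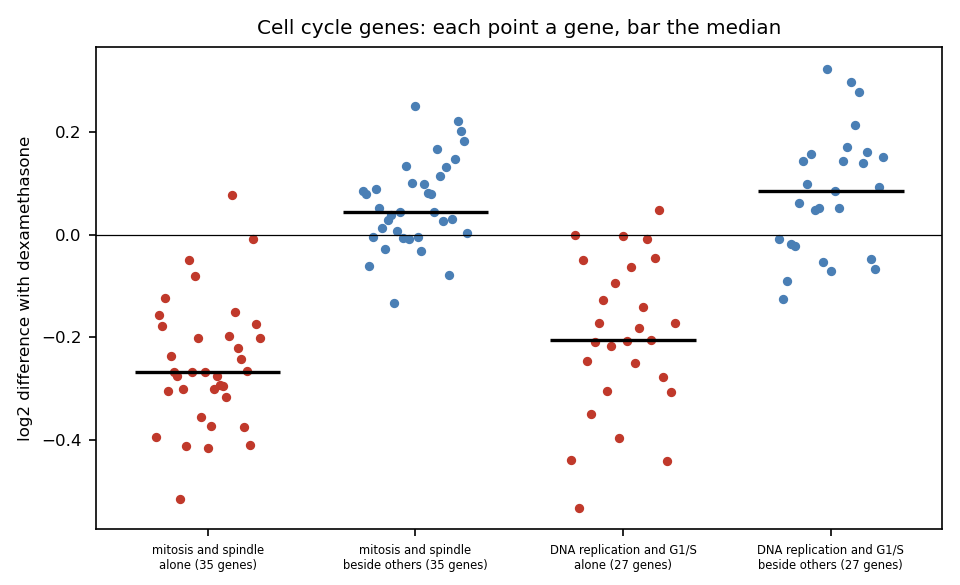
Difference with dexamethasone (log2, y axis) for each measured mitosis gene (35) and replication gene (27), alone (red) and beside the other drugs (blue); black bars are medians. Most red points lie below 0, with medians of -0.27 and -0.21, and the blue points lie around 0.04 and 0.08.

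Genes of cell death and survival had medians near that of all genes or below it. The 13 measured pro-apoptotic BCL2 family genes of 14 had a median of 0.02. BCL2L11 was at 6.62, 7.0 and 7.21 in controls and 6.80, 7.21 and 7.81 with dexamethasone. Replicate 3 was the only dexamethasone array clearly above the controls, and the difference was 0.33 ± 0.21. Beside filanesib, pomalidomide and both it was 0.28, 0.44 and 0.33, which averages to 0.35 ± 0.12 (unadjusted p = 0.0085, adjusted p = 0.52). BMF, another BH3-only gene, differed by 0.17 ± 0.14 and the p53 target PMAIP1 by -0.39 ± 0.18. The 9 measured survival genes of 11 had a median of -0.12, which was 0.01 without dexamethasone replicate 3. BCL2 differed by 0.17 ± 0.18, MCL1, on which myeloma cells depend, by -0.18 ± 0.12, and BCL2L1 by -0.12 ± 0.12.

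Genes of plasma cell identity had a median of -0.01 over 22 measured of 32, with none at an unadjusted p under 0.05. IRF4, the master regulator of the plasma cell state, was at 10.30, 10.19 and 10.43 in controls and 9.87, 10.38 and 10.78 with dexamethasone (0.04 ± 0.23). MYC, driven by IRF4 in myeloma, differed by -0.13 ± 0.13, IKZF1 by -0.04 ± 0.13 and IKZF3 by -0.28 ± 0.20. CCND2, a G1 cyclin, differed by -0.31 ± 0.18 alone and 0.31 ± 0.11 beside the other drugs, and the difference between the estimates did not pass.

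CRBN, the substrate receptor of the ubiquitin ligase that pomalidomide binds, was the protein-coding gene of at least moderate level with the smallest p among those higher with dexamethasone. It was at 6.67, 6.84 and 6.81 in controls and at 7.02, 7.19 and 7.26 with dexamethasone, with no overlap. The difference was 0.38 ± 0.11, with an unadjusted p of 0.0026, and did not pass after adjustment. The control mean of 6.78 was the lowest of the 8 groups. Dexamethasone alone averaged 7.16, pomalidomide alone 7.37, filanesib alone 7.02 and filanesib with dexamethasone 6.79. The part of the low controls in the CRBN difference was not tested. Beside the other drugs CRBN differed by -0.15 ± 0.07, and the difference between the estimates, 0.53 ± 0.13, did not pass either (adjusted p = 0.513). Next in that order came RIMBP3C, at 4.42, 4.21 and 4.71 against 5.71, 5.30 and 5.48 (1.05 ± 0.32), the arginine methyltransferase PRMT3 (0.39 ± 0.13) and the calcium-binding protein SRI (0.34 ± 0.11). After HASPIN among the lower genes came MINPP1, an inositol polyphosphate phosphatase (-0.45 ± 0.12), and the ubiquitin ligases RNF25 (-0.40 ± 0.11) and LNX2 (-0.54 ± 0.15).

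Dexamethasone replicate 3 had the lowest median position of the 6 arrays in the heat shock list (-0.33) and the immediate early list (-0.30). It was not the lowest in the endoplasmic reticulum, amino acid response, circadian clock or nutrient signalling lists. HSPA1A and HSPA1B, the nearly identical inducible HSP70 genes whose probes may share signal, were at 7.64 and 7.82 in that array and between 9.87 and 11.3 and between 10.3 and 11.5 in the other 23 arrays. The median of the heat shock list (8 measured of 16) was -0.16 with it and 0.04 without it. Immediate early genes (19 of 25), which respond within minutes to growth signals, had a median of -0.19, and -0.07 without that array. JUN, an AP-1 subunit, was at 7.93, 7.99 and 7.98 in controls and 7.79, 7.93 and 6.76 with dexamethasone, a difference of -0.47 that was -0.11 without that array. DUSP5, an ERK phosphatase, differed by -0.33 ± 0.12, and IER2 by 0.48 ± 0.19. Beside the other drugs the DUSP5 means went the other way. Without and with dexamethasone they were 9.34 and 9.50 for filanesib, 9.58 and 9.84 for pomalidomide, and 9.70 and 9.79 for both. Without dexamethasone replicate 3 the difference shrank by more than 1.5 times or changed sign for 22 of the 49 genes named here with lower and 12 of the 35 with higher values, and no cause was tested.

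Cholesterol and fatty acid synthesis genes had a median of -0.23, with 19 of 21 measured (29 listed) below 0 against 54.6% of all genes, and 2 lower at an unadjusted p under 0.05 against 2.51%. Without dexamethasone replicate 3 the median was -0.06. SREBF1, which switches on fatty acid synthesis, was at 6.72, 6.35 and 7.17 in controls and 6.56, 6.28 and 6.13 with dexamethasone (-0.42 ± 0.17), and beside the other drugs the difference was -0.29 ± 0.10. The desaturase FADS2 differed by -0.42 ± 0.18.

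Endoplasmic reticulum chaperones (10 measured of 21) had a median of -0.06. SDF2L1, a subunit of the chaperone complex for new secretory proteins, lay at 7.19, 7.10 and 7.29 in controls and 6.75, 6.67 and 6.93 with dexamethasone, with no overlap (-0.41 ± 0.13), and the calcium-binding chaperone CALR differed by -0.22 ± 0.10. Beside the other drugs the differences were -0.23 ± 0.07 and -0.16 ± 0.06. In the amino acid response list (13 of 25, median -0.12) the serine synthesis enzyme PHGDH differed by -0.35 ± 0.12 and the stress factor DDIT3 by -0.41 ± 0.17. IL6R, the receptor for the myeloma growth factor interleukin-6, was at 10.06, 9.82 and 10.11 in controls and 9.81, 9.74 and 9.30 with dexamethasone (-0.38 ± 0.12). For PHGDH, DDIT3 and IL6R the group means changed less with dexamethasone beside filanesib, pomalidomide or both than alone. Means of PHGDH without and with dexamethasone were 6.19 and 6.03 for filanesib, 5.51 and 5.67 for pomalidomide, and 5.76 and 5.63 for both.

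Matrix and adhesion genes (18 of 29) had a median of -0.08. CLU, the secreted chaperone clusterin, was at 5.43, 5.12 and 5.80 in controls and 5.24, 5.15 and 4.65 with dexamethasone, with overlapping groups (-0.44 ± 0.18). Beside filanesib, pomalidomide and both its differences were -0.65, -0.41 and -0.69, which averages to -0.58 ± 0.10 (adjusted p = 0.112), the smallest p of any gene in that comparison. FN1, fibronectin, differed by -0.50 ± 0.20 alone and -0.36 ± 0.11 beside the other drugs. PECAM1, an endothelial adhesion molecule outside this list, differed by -0.02 ± 0.18 alone and -0.45 ± 0.11 beside the other drugs. Its levels over all arrays ran from 3.06 to 4.56, near the medians of the arrays, and are not shown to be above background.

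**Figure D5:**
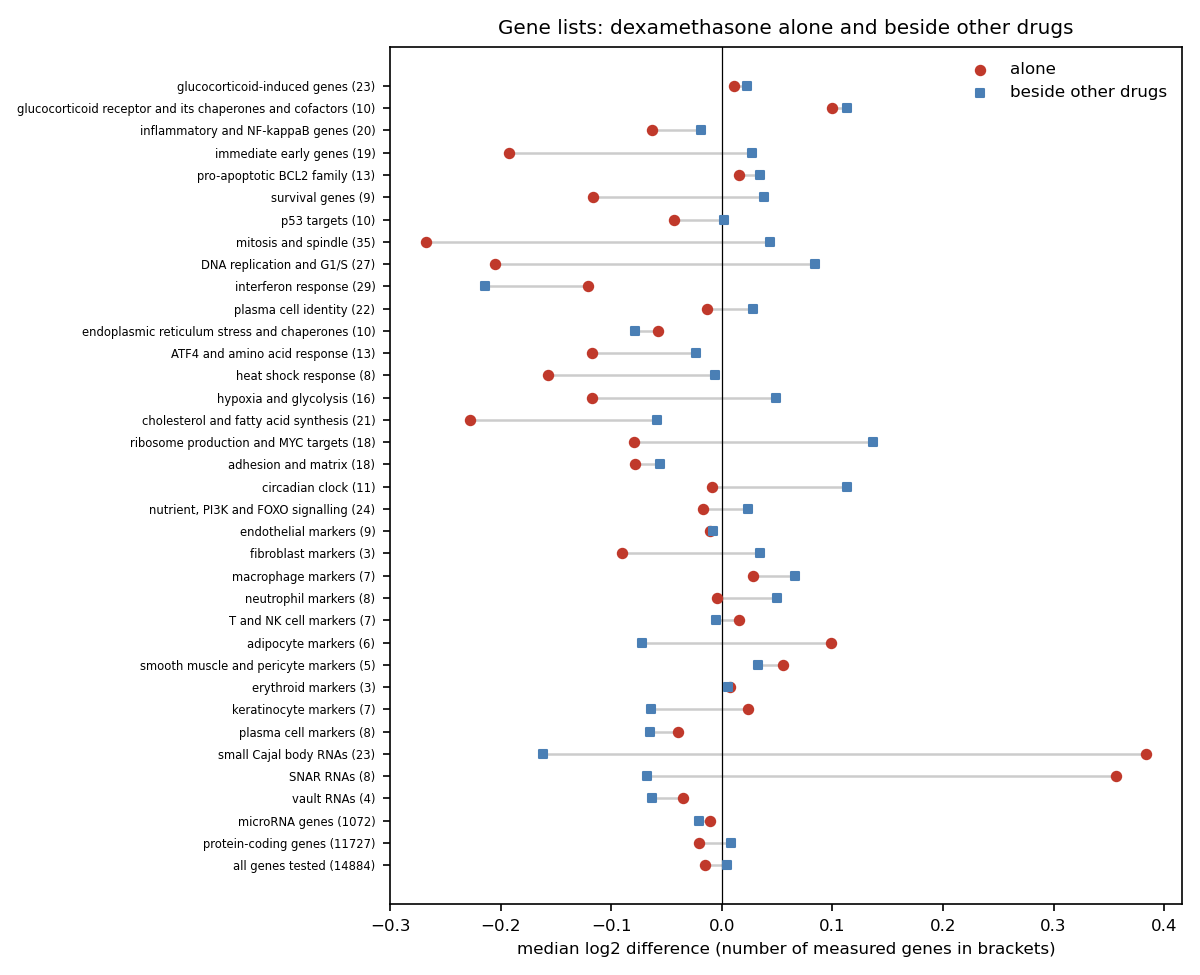
Median difference with dexamethasone (log2, x axis) over the measured genes of each list, alone (red) and beside the other drugs (blue), with the number of measured genes in brackets. The scaRNA and SNAR lists have the highest medians alone, 0.38 and 0.36, and the mitosis list the lowest, -0.27; all genes tested are at -0.02.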

How the data were processed

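Values deposited by the authors were on the log2 scale, 1 per probe set and array. The submitters' processing notes name RMA, which corrects background, quantile-normalises and summarises probes, and Affymetrix Expression Console. Versions are not given in the sources used here. Quantile normalisation hides a change shared by most genes. The 24 columns held 53617 probe sets with no missing value, from 1.26 to 13.6, and array medians of 3.65 to 3.73. Of these, 16098 carried 1 symbol, none several and 37519 no symbol. For 779 genes with more than 1 probe set the one with the highest mean over all arrays was used, without a filter on low values. Arrays give no count depth, and the number of arrays limits the precision.

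Group means were estimated in 1 linear model of the 24 arrays with limma 3.58.1 in R 4.3.3 (16 residual degrees of freedom, eBayes), with two-sided p-values adjusted by Benjamini-Hochberg over all 14884 genes and a threshold of 0.05. Contrasts were dexamethasone alone minus control, the mean of the 3 differences beside other drugs, and their difference. The code was tested on simulated data. Direct contrasts with the other single drugs were added after the data had been seen.

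The comparison and the gene lists were chosen with earlier results of these data known, and the scaRNA class, the host genes and the Cajal body proteins after their values were seen. Genes were named as the 10 with the smallest p in each direction among protein-coding genes with a mean of at least 5, up to 4 of each list, genes of interest and those passing for the difference. Not all of them are described. SCARNA members beyond this rule were chosen after their values were seen, as were the genes named for a role in a list. Alternatives are given in the closing section.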

Additional observations from a re-analysis of the deposited data

Results flagged for a closer look

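For 5 scaRNAs the effect of dexamethasone alone and its effect beside the other drugs differed by a direct test. The differences between the 2 effects were 1.68 for SCARNA10, 3.40 for SCARNA1, 2.35 for SCARNA3, 1.37 for SCARNA12 and 1.99 for SCARNA16 on the log2 scale. The effects share no array. The controls, which for SCARNA10 lay below all 21 other arrays and for SCARNA1, SCARNA3, SCARNA12 and SCARNA16 below 18, 11, 19 and 19 of them, enter only the first effect, and their part in these differences was not tested.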

How the results depend on the processing

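Precision was limited by 3 arrays a group and by values without detection calls, so a low level has no known floor. Quantile normalisation leaves a shift common to all genes unmeasured. For dexamethasone alone against control, 1 gene passed. With array weights 4 genes passed, also without the arrays of pomalidomide alone and, chosen after seeing the data, without replicates 1 and 3 of that group. These 4 were SCARNA10, SCARNA1, SCARNA12 and SCARNA16. None (0) passed with a minimum change of 1.5-fold or, added after seeing the data, over protein-coding genes alone, and 27 probe sets passed when every probe set was tested. For the difference between the effect alone and the effect beside the other drugs, 5 genes passed. That became 2 with a trended and robust variance prior, 0 with the 1.5-fold minimum and 39 with every probe set. For the effect beside the other drugs, 0 passed and 1207 had an unadjusted p under 0.05 in limma, and 1 (CLU) passed with only the arrays of the compared groups. The cause of these changes was not tested. Leaving out all pomalidomide-alone arrays allows no value for the last 2 comparisons, nor do the compared groups alone for the difference. The other settings kept these counts within 1.5 times. Genes with an unadjusted p under 0.05 for dexamethasone alone numbered 581, and 1114 with array weights.

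When single arrays were left out, 0 to 1 genes passed for dexamethasone alone, with 1 only without control replicate 2. For the difference it was 0 to 7, with 0 without control replicate 1, control replicate 3 or dexamethasone replicate 1 and 7 without replicate 1 of filanesib with dexamethasone. It was 0 to 1 for the effect beside the other drugs.

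None of the following genes passed, and the sign of each difference from control turned when an array was left out. The log2 differences ran from -0.26 to 0.028 for BCL2L1, -0.046 to 0.079 for COIL, -0.42 to 0.0095 for DUSP1 and -0.17 to 0.084 for FKBP5. They ran from -1.72 to 0.12 for HSPA1A, -1.80 to 0.015 for HSPA1B, -0.13 to 0.027 for IKZF1 and -0.18 to 0.27 for IRF4. They ran from -0.18 to 0.34 for KLF9, -0.038 to 0.39 for NCOA1, -0.016 to 0.095 for PCNA and -0.078 to 0.055 for PECAM1. They ran from -0.056 to 0.39 for PER1, -0.10 to 0.37 for SCARNA4 and -0.22 to 0.072 for SCARNA9. With array weights PHB2 was at -0.0041.

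The labels number the replicates 1 to 3 in each group, and nothing says that equal numbers share an animal or a day. Deviations of control and dexamethasone arrays with the same number correlated at 0.148, 0.040 and 0.042, and 2 of 24 arrays correlated best with their own number, so the numbers were not taken as pairs. With the replicate block, 1 gene passed for dexamethasone alone, 0 beside the other drugs and 4 for the difference.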
